A study of Mus musculus with 6 samples.

Results

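The cytochrome P450 genes of families 1, 2, 3 and 4 were described in small intestine of mice labelled TLR4ΔIEC and of mice labelled wild type (WT). Members were taken by name: every gene whose symbol starts with Cyp, a family number from 1 to 4, a subfamily letter and a member number, and does not end in -ps. This gave 89 of the 54012 listed genes, of which family 1 has 3, family 2 has 52, family 3 has 10 and family 4 has 24. Of the 89, 7 are numbered pseudogenes and 1, Cyp4x1os, is an antisense transcript of Cyp4x1. None of these 8 reached the level needed for a test.

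Cytochromes P450 of these families are heme enzymes of the endoplasmic reticulum that take electrons from the reductase Por and insert an oxygen atom into their substrate. Families 1 to 3 are best known for oxidising drugs, dietary compounds and steroids, and many of their genes are induced through ligand-activated transcription factors: the aryl hydrocarbon receptor (Ahr) for family 1, the constitutive androstane receptor (Nr1i3, CAR) for Cyp2b genes and the pregnane X receptor (Nr1i2, PXR) for Cyp3a genes. Family 4 hydroxylates the end of fatty acid chains and of eicosanoids such as leukotriene B4. In the gut, these enzymes are known mainly from the absorptive epithelium, where swallowed compounds meet them before they reach the liver.

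Total RNA of 3 mice labelled TLR4ΔIEC and 3 labelled WT, all aged 8 to 12 weeks, was sequenced, and the deposited values are TPM, a transcript abundance per length of transcript that can be compared between genes. TLR4 is the receptor through which cells sense bacterial lipopolysaccharide; per the series title it was depleted in the intestine, and the labels name neither the Cre line nor the strain, treatment or stretch of intestine. The targeted gene does not bear the labels out in whole-tissue RNA: Tlr4 stood at 1.29, 1.22 and 4.81 TPM in replicates 1, 2 and 3 labelled TLR4ΔIEC, against 0.65, 0.57 and 0.70 TPM in those labelled WT, and TPM per gene do not show whether the deleted exons are read. Every direction given below is therefore between libraries by their labels. All per-library values are listed for replicates 1, 2 and 3 in that order.

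Some features of the libraries touch all results. In the TLR4ΔIEC-labelled libraries, alpha-defensins, the antimicrobial peptides of Paneth cells, took 5.21 to 18.4% of all TPM, against 25.3 to 28.7% in those labelled WT. TPM sum to the same total in each library. The median log2 fold change over the 13458 tested genes was 0.16, so a member at that value stood with the typical gene; median-of-ratios scaling put this median at −0.01, quantile normalization at 0.02 and rescaling without defensin, mitochondrial and 18S-like genes at −0.12. TLR4ΔIEC replicate 2 stood apart, with 12221 genes at or above 1 TPM (the other libraries had 13197 to 13634) and with Rn18s at 12836 TPM (3806 to 7032 TPM elsewhere). Markers of absorptive enterocytes summed to 12921 to 15296 TPM in the TLR4ΔIEC-labelled libraries, against 10615 to 14212 TPM in those labelled WT. Markers of the proximal small intestine summed to 722 to 813 TPM in the TLR4ΔIEC-labelled libraries, against 1699 to 3135 TPM in those labelled WT, with 1 of the 10 tested called higher (S100g) and 4 called lower (Lct, Apoa4, Enpp7 and Gata4). Ileal markers summed to 12153 to 38690.5 TPM in the TLR4ΔIEC-labelled libraries, against 3961 to 8824 TPM in those labelled WT, with none of 8 called and 6 of 8 higher in every library labelled TLR4ΔIEC (24.1% of all tested genes were). Markers of liver, the organ known for the most P450, summed to 16.0 to 18.2 TPM in the TLR4ΔIEC-labelled libraries, against 14.4 to 28.6 TPM in those labelled WT. Colon markers summed to 321 to 375 TPM in the TLR4ΔIEC-labelled libraries, against 232 to 281 TPM in those labelled WT. Of these 6 genes, Car4 carried most of the sum and was higher in every library labelled TLR4ΔIEC, 3 were tested with none called, and Aqp8 and Prdx6b were listed at 0. B and plasma cell markers summed to 572 to 2113 TPM in the TLR4ΔIEC-labelled libraries, against 4512 to 5403 TPM in those labelled WT, with none of 4 called and Igha and Jchain lower in every library labelled TLR4ΔIEC. The part of these differences in the P450 values was not tested. In whole tissue, fewer cells of a type and less RNA per cell cannot be told apart.

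Most P450 genes of these families were at or near 0 in this tissue. Of the 89 members, 29 were listed at 0 TPM in all 6 libraries and another 34 averaged below 1 TPM, the minimum for a test. The highest mean among those 34 was 0.92 TPM and their highest single value 1.98 TPM. The 26 tested members were 2 of family 1, 13 of family 2, 4 of family 3 and 7 of family 4. Whole subfamilies known from liver were missing from the tested set. All 9 Cyp4a entries, among them the pseudogene Cyp4a29-ps1, were below the minimum. Cyp4a enzymes are fatty acid hydroxylases induced through Ppara in liver and kidney. All 4 Cyp2a entries were below the minimum too, and of the 5 Cyp2b entries only Cyp2b10 passed it. Just inside the minimum lay Cyp1a1 at 1.157, Cyp1b1 at 1.228 and Cyp2j9 at 1.303 TPM, and just outside it Cyp2w1 at 0.92, Cyp2d10 at 0.66 and Cyp2r1 at 0.638 TPM, as means over the 6 libraries. Cyp1b1, Cyp2c66 and Cyp2j9 passed with a mean below 1 TPM in the TLR4ΔIEC-labelled libraries, so they reached the test through the WT level; no member passed through the TLR4ΔIEC level alone.

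Family 4 was the most abundant, and a single gene carried much of it. Summed over its members, family 4 averaged 1072 ± 187 TPM in the TLR4ΔIEC-labelled libraries and 893 ± 83.5 TPM in those labelled WT (SD, n = 3 each). Cyp4f14 was the highest member in all 6 libraries, with on average 42.8% of the summed P450 TPM in the TLR4ΔIEC-labelled libraries and 39.1% in those labelled WT. Family 2 summed to 148, 411 and 473 TPM in the TLR4ΔIEC-labelled libraries and to 556, 227 and 186 TPM in those labelled WT. These ranges overlap widely, with the lowest value in TLR4ΔIEC replicate 1 and the highest in WT replicate 1. Family 3 summed to 190.0, 312 and 292 TPM in the TLR4ΔIEC-labelled libraries and to 315, 217 and 179 TPM in those labelled WT, again with overlap. Family 1 was a trace, at 2.05 ± 0.754 TPM in the TLR4ΔIEC-labelled libraries and 2.72 ± 0.409 TPM in those labelled WT. The plot of family sums gives these values by library.

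**Figure D1:**
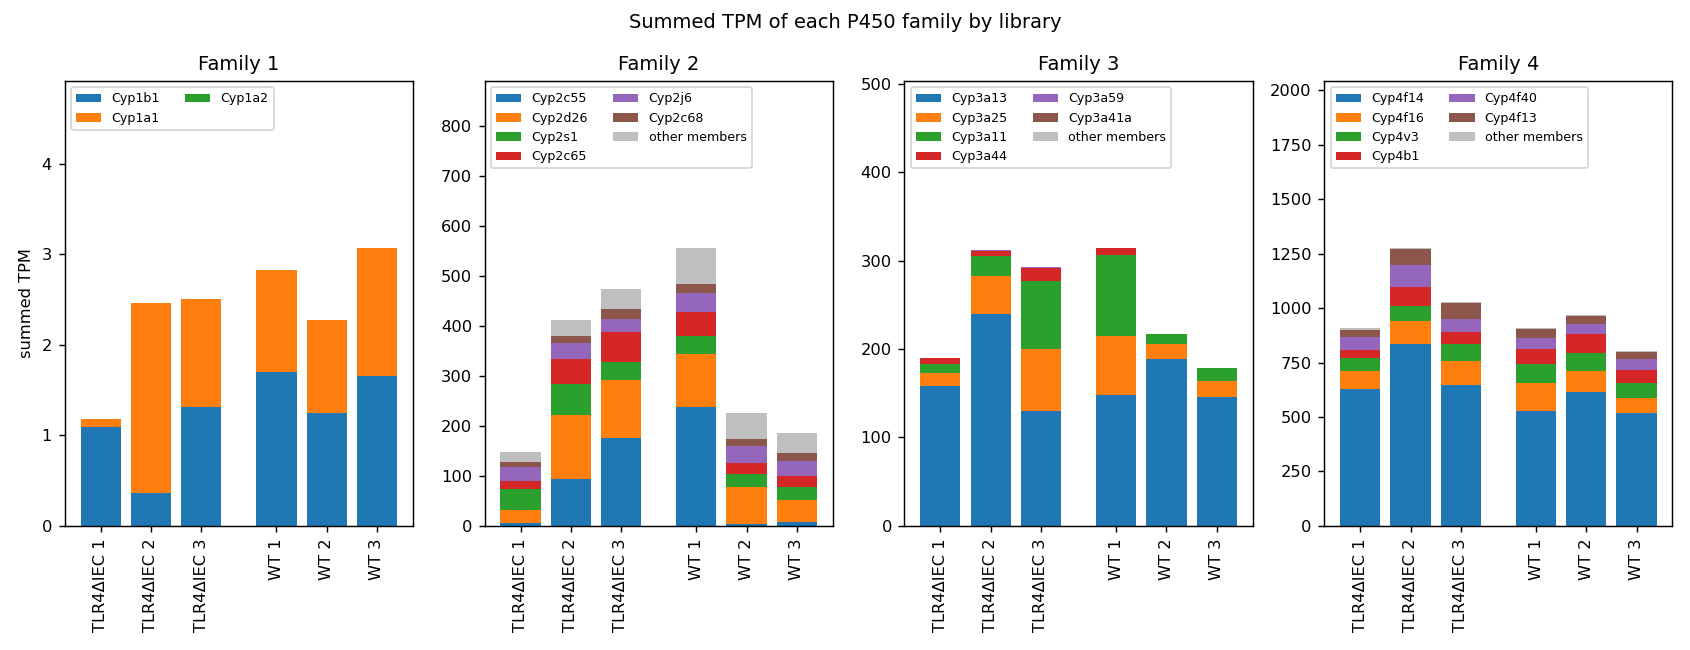
Summed TPM of all members of each P450 family (vertical axes, linear from 0) in each library, with the TLR4ΔIEC-labelled libraries on the left and those labelled WT on the right. Family 4 lies between 803 and 1277 TPM in all 6 libraries, while family 2 runs between 148 and 556 TPM and is lowest in TLR4ΔIEC replicate 1 and highest in WT replicate 1.

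No P450 member passed the threshold of an adjusted p under 0.05. Over all genes, 16 of 13458 passed (0.119%; 0.0446% higher and 0.0743% lower in the TLR4ΔIEC-labelled libraries). At an unadjusted p under 0.05, 5 of 26 members passed, or 19.2%, beside 21.2% of all tested genes. Of these, Cyp2s1, Cyp3a44 and Cyp4f40 were higher in the TLR4ΔIEC-labelled libraries (11.5% of members, 18.4% of all genes) and Cyp2b10 and Cyp2j9 lower (7.69% of members, 2.77% of all genes). Cyp2b10 and Cyp2j9 also had all 3 values labelled TLR4ΔIEC below all 3 labelled WT, beside 3.53% of all genes, and Cyp2s1, Cyp4f14 and Cyp4f40 had all 3 above, beside 24.1% of all genes. In either direction this was 19.2% of members, beside 27.6% of all genes. These shares of members lie near or below the background, except on the lower side, where the counts are 2 of 26. Of those 2, Cyp2j9 passed the minimum through its WT level alone, so its mean had to lie lower, as had that of Cyp1b1 among the 6 named next. This route fixes the direction of the mean and not the separation, and Cyp2c66 passed likewise with overlapping groups. An excess on the lower side was not tested, and none is read from these counts. Under median-of-ratios scaling or quantile normalization, no member lay wholly above (9.70% and 11.1% of all genes did) and 6 lay wholly below (23.1%, beside 9.85% and 8.54% of all genes): Cyp1b1, Cyp2b10, Cyp2j6, Cyp2j9, Cyp2u1 and Cyp4v3. Under rescaling without defensin, mitochondrial and 18S-like genes no member lay above, beside 6.36% of all genes, and the same 6 and Cyp2c40 lay below, beside 12.7%. Leaving out TLR4ΔIEC replicate 1 gave 2 called members, Cyp2b10 and Cyp4f13, beside 367 calls over all genes (2.74%). Leaving out any other library gave no called member, and the calls over all genes were 0 without TLR4ΔIEC replicate 2, 5 without TLR4ΔIEC replicate 3, 32 without WT replicate 1, 0 without WT replicate 2 and 3 without WT replicate 3. The members wholly above numbered 7 without TLR4ΔIEC replicate 1, and those wholly below 4 without TLR4ΔIEC replicate 2, 7 without TLR4ΔIEC replicate 3 and 5 without WT replicate 3. Array weights gave 1 called member, Cyp2b10, beside 1.01% of all genes.

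**Figure D2:**
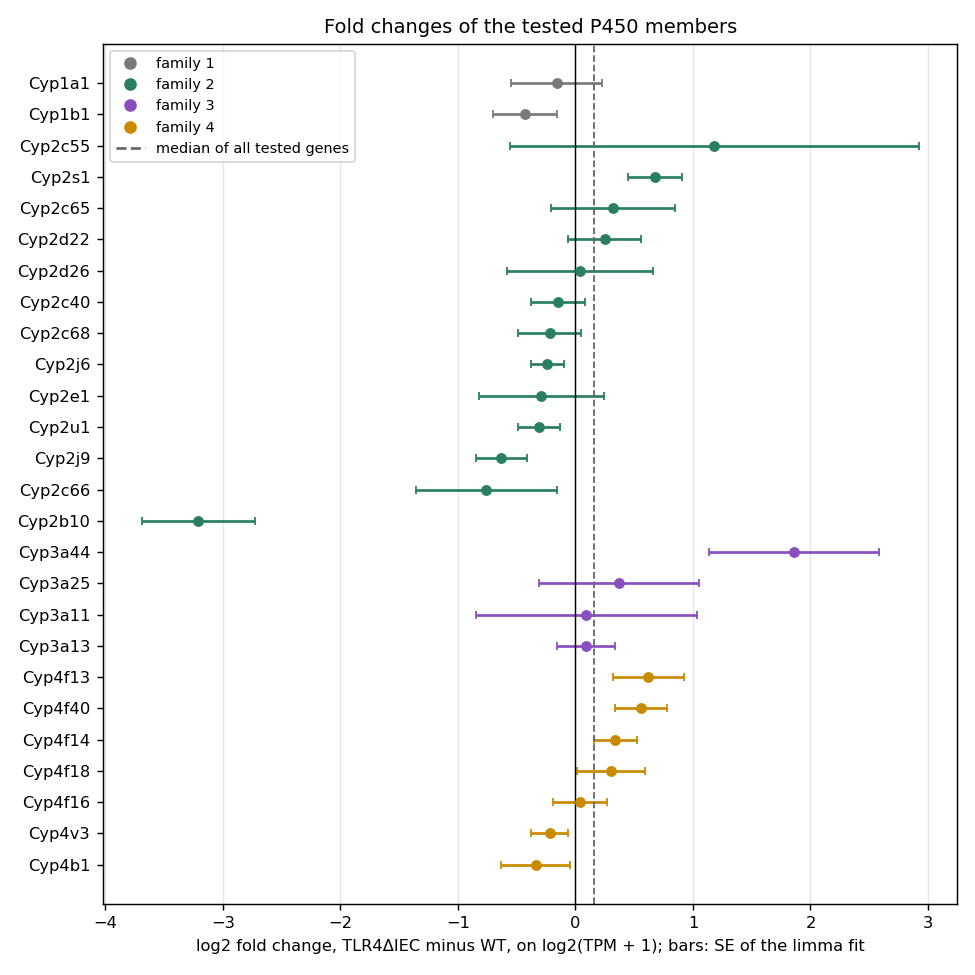
Log2 fold change of each tested member, TLR4ΔIEC minus WT on the log2(TPM + 1) scale, with its standard error, grouped by family. Cyp2b10 at −3.21 lies far below the other 25, Cyp3a44 at 1.86 and Cyp2c55 at 1.18 lie highest with wide errors, the dashed line marks the median of all tested genes at 0.16, and the remaining members lie within −0.76 and 0.68.

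By families, the median log2 fold change was −0.30 over the 2 tested members of family 1, −0.22 over the 13 of family 2, 0.23 over the 4 of family 3 and 0.30 over the 7 of family 4, beside 0.16 over all tested genes. The families overlap widely, with members from −0.43 to −0.16 in family 1, −3.21 to 1.18 in family 2, 0.09 to 1.86 in family 3 and −0.34 to 0.62 in family 4. Above 0 were 0 of 2 members in family 1, 5 of 13 in family 2, 4 of 4 in family 3 and 5 of 7 in family 4, beside 68.1% of all genes. The family 3 median was 0.04 with median-of-ratios scaling and turned negative with quantile normalization (−0.03) and with rescaling (−0.08). The family 4 median was 0.14, 0.06 and 0.02 under those 3 scalings and the family 2 median −0.40, −0.27 and −0.50. Families 2 and 3 depended on the replicate 1 libraries: without TLR4ΔIEC replicate 1 the medians of families 2 and 3 were 0.01 and 0.85, and without WT replicate 1 they were 0.08 and 1.00. The family 2 median also depended on the minimum for a test. It was 0.02 over 31 members without a minimum and 0.04 over 9 members with a minimum mean of 5 TPM. No difference between families was tested.

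Cyp2b10 (ENSMUSG00000030483, chr7:25897620-25926624, plus strand, GRCm38), a drug-oxidising enzyme known as the classical target of CAR in mouse liver, had the largest difference of any member. It stood at 0.3, 2.56 and 2.45 TPM in the TLR4ΔIEC-labelled libraries, against 31.7, 27.0 and 12.8 TPM in those labelled WT. Every library labelled TLR4ΔIEC lay well below every library labelled WT. The means were 1.77 ± 1.27 TPM in the TLR4ΔIEC-labelled libraries and 23.9 ± 9.82 TPM in those labelled WT (SD, n = 3 each). The log2 fold change of −3.21 (standard error 0.48, adjusted p = 0.08) misses the threshold. Over the settings tried it ran from −4.0 to −2.05 without a change of sign, with adjusted p-values from 0.0355 to 0.325. The adjusted p was 0.0355 without TLR4ΔIEC replicate 1, the library with the lowest value, and 0.0406 with array weights. Its nearest paralog by transcript sequence, Cyp2b19 at 87.5% identity, was listed at 0 in all libraries, as were the other Cyp2b genes.

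Cyp2b10 and CAR lay low in the same libraries. Nr1i3, the gene of CAR, stood at 0.93, 1.89 and 2.07 TPM in the TLR4ΔIEC-labelled libraries, against 6.76, 12.2 and 5.49 TPM in those labelled WT, with a log2 fold change of −1.76 (standard error 0.32, adjusted p = 0.0913). Its groups did not overlap, under the deposited scaling or under the 3 other scalings. Nr1i2, the gene of PXR, lay the other way, at 40.0, 60.6 and 54.0 TPM in the TLR4ΔIEC-labelled libraries against 36.9, 34.6 and 26.5 TPM in those labelled WT, with a log2 fold change of 0.64 (standard error 0.20, adjusted p = 0.155). Under each of the 3 other scalings the 2 groups of Nr1i2 overlapped, with log2 fold changes of 0.44, 0.34 and 0.32. Neither receptor passed the threshold, and both were chosen for the text after their values were seen. Proximal markers were lower in the same libraries as Cyp2b10 and CAR, and the part of that difference in theirs was not tested.

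**Figure D3:**
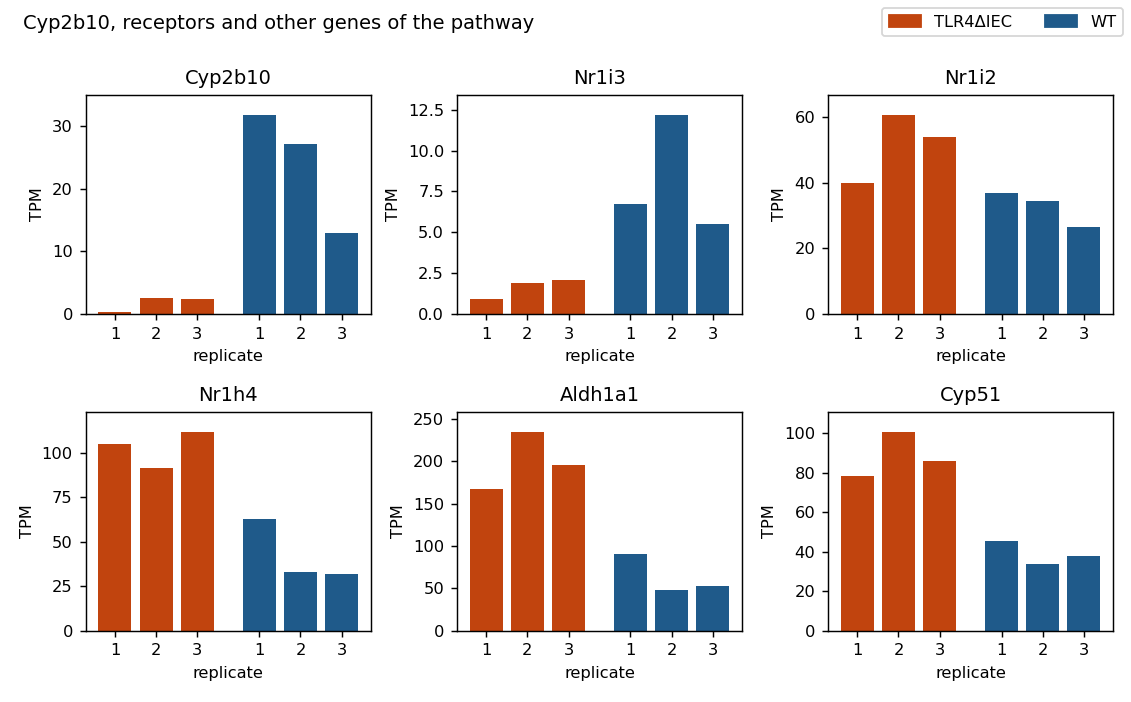
TPM (vertical axes, linear from 0, a different range in each panel) of Cyp2b10, the receptor genes Nr1i3 (CAR), Nr1i2 (PXR) and Nr1h4 (FXR), Aldh1a1 and Cyp51 in each library, with replicates 1 to 3 labelled TLR4ΔIEC left of replicates 1 to 3 labelled WT. Cyp2b10 and Nr1i3 lie lower in all 3 libraries labelled TLR4ΔIEC than in any labelled WT, and the other 4 genes lie higher in all 3.

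The sequence before the start site of Cyp2b10 is shown because this gene had the largest difference. Those of Cyp2c and Cyp3a genes are shown because log2 fold changes differed most within these subfamilies, by 1.94 among the 5 tested Cyp2c genes and by 1.77 among the 4 tested Cyp3a genes. They are from RefSeq promoters on GRCm38.p6, end before the annotated gene and are written 5′ to 3′ on the gene's strand. Capitals mark matches on either strand to any of 4 motifs. The first is the TATA box, TATAAA. The second is the hexamer that many nuclear receptors bind, AGGTCA. The others are a site of GATA factors, AGATAA, and the core bound by Ahr and Arnt, GCGTG. The Cyp2b10 sequence is chr7:25897408-25897619 on the plus strand. Its capitals are CACGC, the reverse complement of GCGTG.
Cyp2b10: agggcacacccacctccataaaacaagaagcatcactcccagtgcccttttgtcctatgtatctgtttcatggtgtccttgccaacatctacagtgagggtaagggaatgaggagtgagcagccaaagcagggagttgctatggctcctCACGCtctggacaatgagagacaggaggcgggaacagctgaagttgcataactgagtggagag

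Of the Cyp2c genes, Cyp2c55 and Cyp2c66 had the highest and lowest log2 fold change, and Cyp2c65 lies between them on the chromosome and is 96.4% identical in transcript to Cyp2c66. All 3 are on the plus strand, at chr19:39006769-39007018, chr19:39060756-39061005 and chr19:39113648-39113897. Cyp2c65 and Cyp2c66 share most of these letters, including TATAAA at some distance from the start, and Cyp2c55 holds TATAAA close to the start and AGATAA farther off.
Cyp2c55: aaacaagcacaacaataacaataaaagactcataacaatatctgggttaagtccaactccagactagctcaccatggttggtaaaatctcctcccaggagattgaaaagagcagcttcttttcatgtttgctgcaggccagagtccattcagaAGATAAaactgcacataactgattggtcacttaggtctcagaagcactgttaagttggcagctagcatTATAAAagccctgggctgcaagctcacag
Cyp2c65: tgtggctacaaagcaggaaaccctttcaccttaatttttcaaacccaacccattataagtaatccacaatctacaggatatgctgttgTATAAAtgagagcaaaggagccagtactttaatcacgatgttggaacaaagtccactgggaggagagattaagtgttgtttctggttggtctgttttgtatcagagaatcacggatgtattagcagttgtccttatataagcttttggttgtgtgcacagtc
Cyp2c66: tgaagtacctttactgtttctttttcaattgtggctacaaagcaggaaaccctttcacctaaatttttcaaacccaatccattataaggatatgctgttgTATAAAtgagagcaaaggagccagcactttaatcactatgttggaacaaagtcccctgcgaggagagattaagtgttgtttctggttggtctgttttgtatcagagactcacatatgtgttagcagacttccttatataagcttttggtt

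Of the Cyp3a genes, Cyp3a44 had the highest log2 fold change, Cyp3a13 and Cyp3a11 were level at the lowest (0.09 each), and Cyp3a11 and Cyp3a25 are neighbours of Cyp3a44. All 4 are on the minus strand, at chr5:145805875-145806124, chr5:137921620-137921869, chr5:145879965-145880104 and chr5:146009619-146009868. Cyp3a11, Cyp3a25 and Cyp3a44 each hold AGGTCA or its reverse complement TGACCT, and the more distant Cyp3a13 holds none of the 4 motifs.
Cyp3a44: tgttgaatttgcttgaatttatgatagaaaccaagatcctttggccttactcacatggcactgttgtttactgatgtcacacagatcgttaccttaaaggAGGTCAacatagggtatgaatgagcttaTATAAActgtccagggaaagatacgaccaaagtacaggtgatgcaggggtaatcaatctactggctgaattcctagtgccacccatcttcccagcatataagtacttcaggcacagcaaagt
Cyp3a13: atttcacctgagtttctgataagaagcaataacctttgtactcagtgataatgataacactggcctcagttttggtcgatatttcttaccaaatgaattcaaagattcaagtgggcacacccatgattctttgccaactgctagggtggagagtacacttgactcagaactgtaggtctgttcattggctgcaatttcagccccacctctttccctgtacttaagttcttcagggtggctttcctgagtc
Cyp3a11: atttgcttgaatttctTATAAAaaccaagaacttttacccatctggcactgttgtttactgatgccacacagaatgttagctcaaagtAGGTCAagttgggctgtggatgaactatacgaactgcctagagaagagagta
Cyp3a25: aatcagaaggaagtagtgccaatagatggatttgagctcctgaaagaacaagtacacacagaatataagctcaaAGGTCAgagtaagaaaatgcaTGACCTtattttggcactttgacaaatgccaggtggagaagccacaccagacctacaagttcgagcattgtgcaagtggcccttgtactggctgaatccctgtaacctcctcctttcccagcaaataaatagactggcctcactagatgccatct

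Over the 24 tested members with a promoter in RefSeq (66 of the 89 members had one), AGGTCA occurred in the 250 bases before the start of 3, or 12.5%, beside 14.0% of the 32851 promoters of all genes. TATAAA occurred in 8 (33.3%, beside 12.4%), AGATAA in 5 (20.8%, beside 9.99%) and GCGTG in 8 (33.3%, beside 28.2%). The shares of members count genes, whereas the shares beside them count promoters. A member with several promoters may count through any of them, which can raise the share of members. The paired shares are therefore not like measures, and no excess or lack of a motif is read from them. These are matches of letters and not measured sites.

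The Cyp2c subfamily, enzymes that oxidise drugs and arachidonic acid, is clustered on chromosome 19, and some of its genes varied widely between mice of the same label. Cyp2c55, a gut member known to hydroxylate arachidonic acid, stood at 5.23, 94.0 and 175 TPM in the TLR4ΔIEC-labelled libraries, against 237, 3.42 and 7.46 TPM in those labelled WT. Each label thus held low and high libraries, and the highest of the 6 exceeded the lowest 69.3-fold. Its log2 fold change was 1.18 (standard error 1.74, adjusted p = 0.741), a difference smaller than its standard error. Cyp2c65 stood at 15.8, 50.8 and 60.6 TPM in the TLR4ΔIEC-labelled libraries, against 49.0, 22.9 and 21.8 TPM in those labelled WT, and its log2 fold change was 0.32 (standard error 0.53, adjusted p = 0.769). Its low library labelled TLR4ΔIEC and high library labelled WT are those of Cyp2c55. Cyp2c66 stood at 0, 0.46 and 1.36 TPM in the TLR4ΔIEC-labelled libraries, against 5.39, 0.7 and 0.53 TPM in those labelled WT, and WT replicate 1 was again the highest. Its log2 fold change was −0.76 (standard error 0.60, adjusted p = 0.516).

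The other tested Cyp2c genes varied much less. Cyp2c68 stood at 9.23, 13.01 and 20.7 TPM in the TLR4ΔIEC-labelled libraries, against 17.4, 15.0 and 15.7 TPM in those labelled WT. Cyp2c40, an arachidonic acid oxidising enzyme of mouse intestine, stood at 1.47, 1.96 and 2.97 TPM in the TLR4ΔIEC-labelled libraries, against 2.34, 2.52 and 2.35 TPM in those labelled WT. Their log2 fold changes were −0.22 and −0.15, with overlapping groups. Cyp2c40 and Cyp2c68 are 98% identical in transcript, so how reads were split between them is uncertain, as it is between Cyp2c65 and Cyp2c66.

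**Figure D4:**
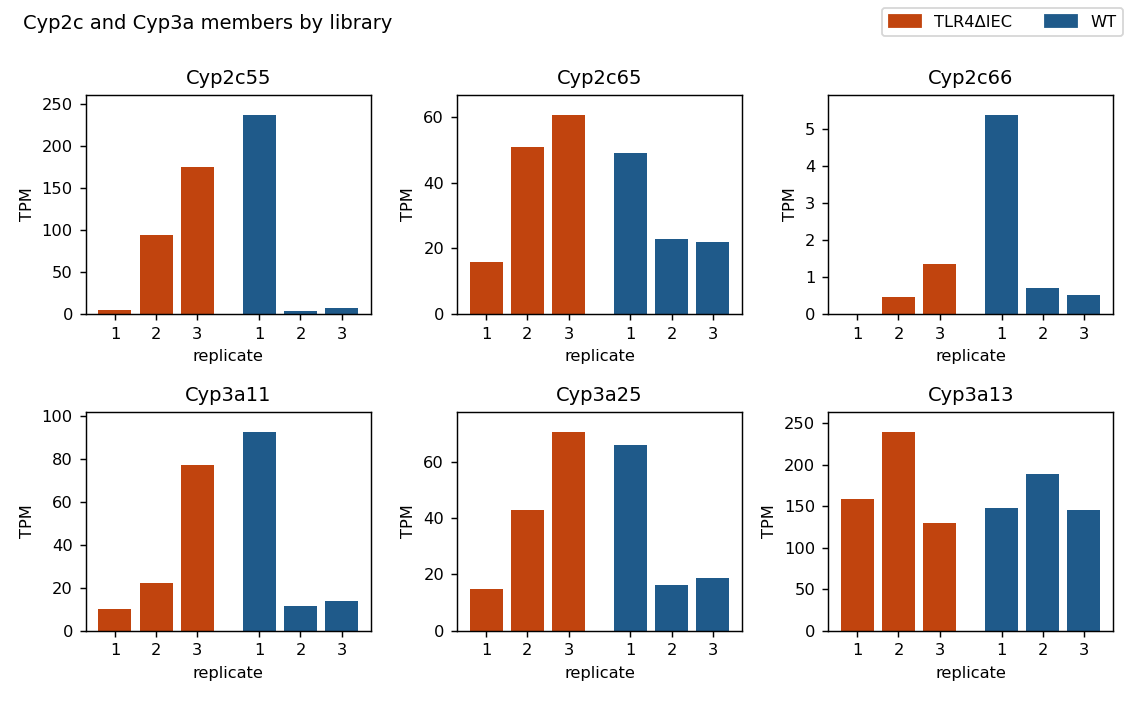
TPM (vertical axes, linear from 0, a different range in each panel) of Cyp2c55, Cyp2c65, Cyp2c66, Cyp3a11, Cyp3a25 and Cyp3a13 in each library, with replicates 1 to 3 labelled TLR4ΔIEC left of replicates 1 to 3 labelled WT. In the first 5, TLR4ΔIEC replicate 1 is the lowest of its label and WT replicate 1 the highest of its label, by at least 2-fold each; Cyp3a13 does not show this order.

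Among the remaining family 2 genes, Cyp2s1 lay higher in the TLR4ΔIEC-labelled libraries and Cyp2j9 lower. Cyp2s1 (ENSMUSG00000040703, chr7:25802475-25816913, minus strand), a P450 of epithelia that is known to be inducible through Ahr, stood at 43.0, 62.2 and 36.2 TPM in the TLR4ΔIEC-labelled libraries, against 34.7, 26.1 and 24.8 TPM in those labelled WT. The groups did not overlap, but replicate 3 labelled TLR4ΔIEC and replicate 1 labelled WT lay close together. The log2 fold change of Cyp2s1 was 0.68 (standard error 0.23, adjusted p = 0.167), and under each of the 3 other scalings the groups overlapped. Cyp2j9 (ENSMUSG00000015224, chr4:96568429-96591578, minus strand), which is known to hydroxylate arachidonic acid in mouse brain, stood at 1.11, 0.61 and 0.73 TPM in the TLR4ΔIEC-labelled libraries, against 1.81, 1.83 and 1.73 TPM in those labelled WT. The 3 WT values were nearly equal and all lay above those labelled TLR4ΔIEC, at levels close to the minimum for a test. The log2 fold change of Cyp2j9 was −0.63 (standard error 0.22, adjusted p = 0.17).

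Cyp2j6, the neighbour of Cyp2j9 on chromosome 4 and the more abundant of the pair, stood at 27.9, 32.2 and 26.0 TPM in the TLR4ΔIEC-labelled libraries, against 37.9, 32.9 and 31.8 TPM in those labelled WT. The groups overlapped only between TLR4ΔIEC replicate 2 and the lowest WT library, and the log2 fold change was −0.24 (standard error 0.14, adjusted p = 0.375). Cyp2u1, which hydroxylates arachidonic acid and other long fatty acids, stood at 6.08, 5.87 and 8.7 TPM in the TLR4ΔIEC-labelled libraries, against 8.63, 7.99 and 9.4 TPM in those labelled WT. The groups overlapped through TLR4ΔIEC replicate 3, and its log2 fold change was −0.31 (standard error 0.18, adjusted p = 0.381). Both genes lay wholly below WT under each of the 3 other scalings.

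The Cyp2d genes on chromosome 15 shared with Cyp2c55 the place of the replicate 1 libraries, lowest under the TLR4ΔIEC label and highest under the WT label, with smaller gaps. Cyp2d26 stood at 25.8, 128 and 116 TPM in the TLR4ΔIEC-labelled libraries, against 108, 73.5 and 44.9 TPM in those labelled WT, with TLR4ΔIEC replicate 1 lowest and the groups overlapping. Its log2 fold change was 0.04 (standard error 0.62, adjusted p = 0.979) and turned negative under each of the 3 other scalings. Cyp2d22, often taken as the mouse counterpart of human CYP2D6, stood at 6.14, 13.7 and 13.9 TPM in the TLR4ΔIEC-labelled libraries, against 10.9, 7.87 and 7.71 TPM in those labelled WT. The groups overlapped, and the log2 fold change was 0.25 (standard error 0.31, adjusted p = 0.688). Cyp2e1, the ethanol-oxidising P450 of liver, stood at 1.49, 1.48 and 1.47 TPM in the TLR4ΔIEC-labelled libraries, against 6.06, 1.68 and 0.47 TPM in those labelled WT. Its libraries labelled TLR4ΔIEC were nearly equal and lay within the spread of those labelled WT, and the log2 fold change was −0.29 (standard error 0.53, adjusted p = 0.797).

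Of family 3, Cyp3a13, known as the main Cyp3a enzyme of mouse intestine, was the most abundant and did not separate the labels. It stood at 158, 240.1 and 129.7 TPM in the TLR4ΔIEC-labelled libraries, against 148, 189 and 146 TPM in those labelled WT, and the log2 fold change was 0.09 (standard error 0.25, adjusted p = 0.868). That value was −0.11, −0.22 and −0.23 under the 3 other scalings. Cyp3a11, the mouse liver enzyme that PXR ligands induce, stood at 10.3, 22.2 and 77.2 TPM in the TLR4ΔIEC-labelled libraries, against 92.7, 11.4 and 13.8 TPM in those labelled WT. High and low libraries occurred under both labels, and the log2 fold change was 0.09 (standard error 0.94, adjusted p = 0.969); it ran from −0.67 without TLR4ΔIEC replicate 3 to 1.03 over the settings tried. Cyp3a25 stood at 14.7, 43.0 and 70.6 TPM in the TLR4ΔIEC-labelled libraries, against 65.8, 16.2 and 18.9 TPM in those labelled WT. Within each label its order of libraries is that of Cyp3a11, and the log2 fold change was 0.37 (standard error 0.68, adjusted p = 0.8).

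Cyp3a44 (ENSMUSG00000054417, chr5:145773983-145805874, minus strand), next to Cyp3a11 on chromosome 5, had the highest log2 fold change of all members, 1.86 (standard error 0.72, adjusted p = 0.206). It stood at 6.34, 6.0 and 14.2 TPM in the TLR4ΔIEC-labelled libraries, against 7.42, 0.27 and 0.52 TPM in those labelled WT. WT replicates 2 and 3 were below 1 TPM and WT replicate 1 lay among the TLR4ΔIEC-labelled libraries, so the groups overlapped. WT replicate 1 was also the highest WT library for Cyp3a11 and Cyp3a25. Cyp3a11 and Cyp3a44 are 93.4% identical in transcript, and Cyp3a44 and the untested Cyp3a41a are 95% identical, so how reads were assigned among these 3 genes is uncertain. Cyp3a25 is only 75.3% identical to Cyp3a44. It is 97.0% identical to the untested Cyp3a59, so how reads were split between Cyp3a25 and Cyp3a59 is uncertain too.

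Family 1 was barely present. Cyp1a1, the classical Ahr target that oxidises polycyclic aromatic compounds, stood at 0.09, 2.1 and 1.2 TPM in the TLR4ΔIEC-labelled libraries, against 1.12, 1.02 and 1.41 TPM in those labelled WT. TLR4ΔIEC replicate 1 was close to 0 and the groups overlapped, with a log2 fold change of −0.16 (standard error 0.39, adjusted p = 0.857). Cyp1b1, an Ahr-inducible enzyme found mainly outside the liver, stood at 1.09, 0.36 and 1.31 TPM in the TLR4ΔIEC-labelled libraries, against 1.7, 1.25 and 1.66 TPM in those labelled WT. The groups overlapped through TLR4ΔIEC replicate 3, and the log2 fold change was −0.43 (standard error 0.27, adjusted p = 0.41). Cyp1a2, the caffeine-oxidising enzyme of liver, was listed at 0 in all 6 libraries. Ahr itself lay at 2.69, 1.4 and 2.21 TPM in the TLR4ΔIEC-labelled libraries, against 2.77, 3.04 and 3.07 TPM in those labelled WT, with a log2 fold change of −0.37 (standard error 0.22, adjusted p = 0.374) and groups that did not overlap.

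Family 4 was led by the Cyp4f genes of chromosome 17. Cyp4f14 (ENSMUSG00000024292, chr17:32905070-32917342, minus strand), which hydroxylates leukotriene B4 and the side chain of vitamin E, stood at 630.1, 835 and 648 TPM in the TLR4ΔIEC-labelled libraries, against 526, 616 and 517 TPM in those labelled WT. The groups did not overlap, and TLR4ΔIEC replicate 1 lay just above the highest WT library. The means were 705 ± 114 TPM in the TLR4ΔIEC-labelled libraries and 553 ± 54.8 TPM in those labelled WT (SD, n = 3 each), with a log2 fold change of 0.34 (standard error 0.18, adjusted p = 0.322). Cyp4f40 (ENSMUSG00000090700, chr17:32658900-32676914, plus strand) stood at 58.0, 100.4 and 62.1 TPM in the TLR4ΔIEC-labelled libraries, against 49.8, 45.7 and 48.3 TPM in those labelled WT. It did not overlap between labels, with near-equal WT values and a high TLR4ΔIEC replicate 2, and the log2 fold change was 0.56 (standard error 0.22, adjusted p = 0.204). Under each of the 3 other scalings the groups of Cyp4f14 and of Cyp4f40 overlapped.

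Cyp4f13 stood at 34.4, 76.2 and 71.3 TPM in the TLR4ΔIEC-labelled libraries, against 41.3, 37.4 and 32.4 TPM in those labelled WT. TLR4ΔIEC replicates 2 and 3 lay above every WT library and TLR4ΔIEC replicate 1 among them. The log2 fold change was 0.62 (standard error 0.30, adjusted p = 0.292) with all libraries and 0.98 (limma adjusted p = 0.042) without TLR4ΔIEC replicate 1; over the settings tried the adjusted p ran from 0.042 to 0.66. Cyp4f16 stood at 81.7, 106 and 109.6 TPM in the TLR4ΔIEC-labelled libraries, against 128, 93.5 and 72.3 TPM in those labelled WT, with a log2 fold change of 0.04 (standard error 0.23, adjusted p = 0.936). Its groups overlapped fully, and its transcript is 96.1% identical to that of Cyp4f37, which was below the minimum. Cyp4f18, the leukotriene B4 oxidising P450 of neutrophils, stood at 7.25, 2.86 and 4.32 TPM in the TLR4ΔIEC-labelled libraries, against 3.05, 3.95 and 3.54 TPM in those labelled WT. TLR4ΔIEC replicate 1 was the highest and TLR4ΔIEC replicate 2 the lowest of all 6, and the log2 fold change was 0.30 (standard error 0.29, adjusted p = 0.599).

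The family 4 genes outside the Cyp4f subfamily lay slightly lower in the TLR4ΔIEC-labelled libraries, within the spread between mice under the deposited scaling. Cyp4v3, the mouse counterpart of the human fatty acid hydroxylase CYP4V2, stood at 59.5, 70.3 and 76.3 TPM in the TLR4ΔIEC-labelled libraries, against 87.2, 85.6 and 68.3 TPM in those labelled WT. Its log2 fold change was −0.22 (standard error 0.16, adjusted p = 0.474). Under each of the 3 other scalings Cyp4v3 lay wholly below WT, with log2 fold changes of −0.42, −0.53 and −0.54. Cyp4b1, known for activating the lung toxin ipomeanol, stood at 38.2, 84.4 and 54.9 TPM in the TLR4ΔIEC-labelled libraries, against 71.0, 84.6 and 60.2 TPM in those labelled WT. The groups overlapped, and the log2 fold change was −0.34 (standard error 0.29, adjusted p = 0.547).

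**Figure D5:**
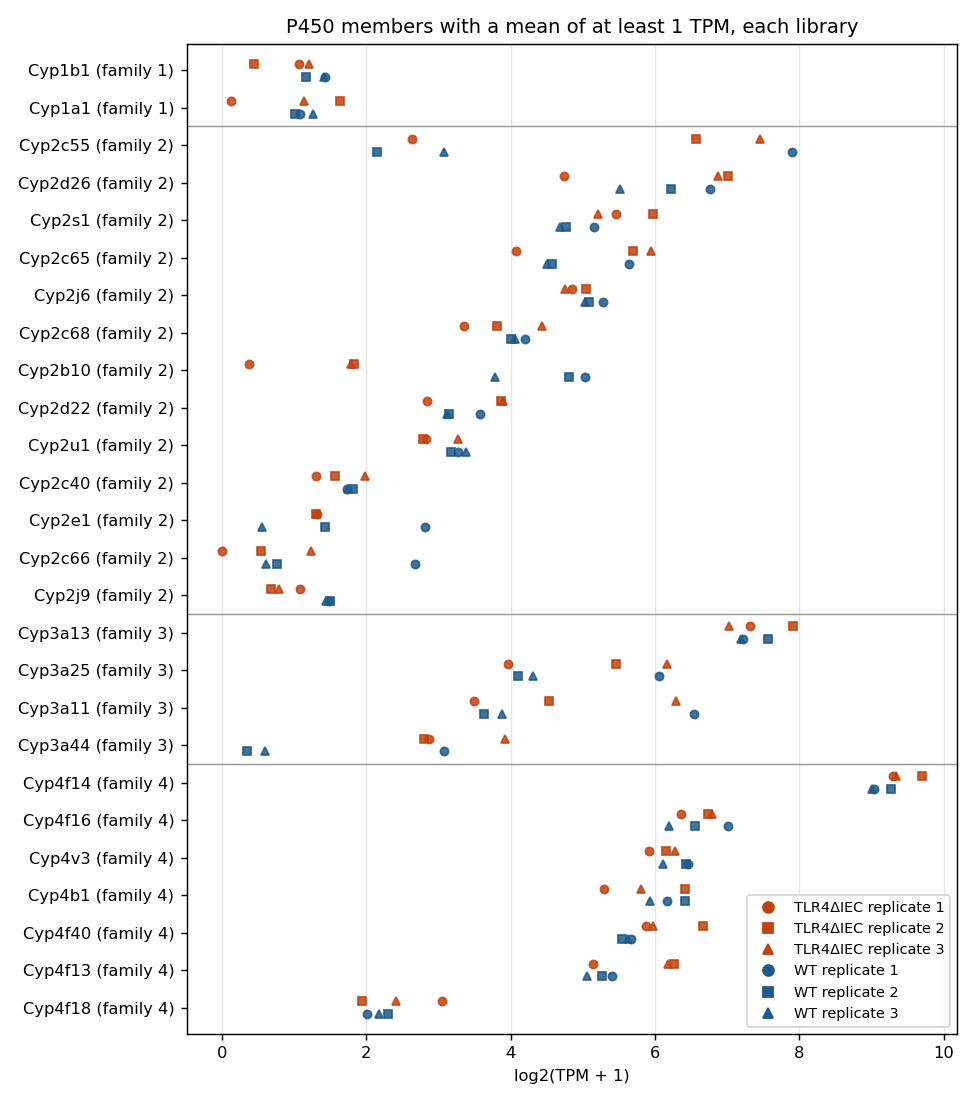
Level of each of the 26 tested members, as log2(TPM + 1), in each library, by family, with libraries labelled TLR4ΔIEC in orange above those labelled WT in blue. Cyp4f14 is the highest member in all 6 libraries at 517 to 835 TPM, and Cyp2b10, with log2 fold change −3.21, is the member whose colours lie farthest apart.

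Many members shared an order of libraries within each label. In 13 of 26 members (50%) TLR4ΔIEC replicate 1 was the lowest of its label and WT replicate 1 the highest of its label, beside 2201 of 13458 tested genes (16.4%). These were 7 of 13 members of family 2, 2 of 4 of family 3, 4 of 7 of family 4 and none of the 2 of family 1. With a gap of at least 2-fold to the next library on both sides, the order held in 5 of 26 members (19.2%), namely Cyp2c55, Cyp2c65, Cyp2c66, Cyp3a11 and Cyp3a25, beside 38 of 13458 genes (0.282%). The order was chosen after the values were seen, some members are neighbours on a chromosome, and it was given no test. Among genes outside these families, 10 of the 15 tested CAR and PXR target genes and 9 of the 19 tested Ppara target genes showed it, without the condition on the gap. So did 6 of 18 receptors and partners, 4 of 12 heme genes, 1 of 5 Ahr targets, 1 of 6 electron donors, 1 of 10 epoxide and eicosanoid genes and 1 of 7 P450 genes of other families.

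The partners of the P450 genes were read from lists of genes of known role, and none of their tested genes passed the threshold. Electron donors had a median log2 fold change of −0.03 over 6 tested genes. Por, the reductase that all these enzymes share, stood at 62.9, 80.1 and 50.2 TPM in the TLR4ΔIEC-labelled libraries, against 59.9, 63.0 and 49.4 TPM in those labelled WT, and did not separate the labels. Cyb5a, the cytochrome b5 that assists some P450 enzymes, averaged 239 ± 77.9 TPM in the TLR4ΔIEC-labelled libraries and 263 ± 9.45 TPM in those labelled WT (SD, n = 3 each). Cyb5r3, the reductase of cytochrome b5, stood at 44.4, 53.3 and 61.96 TPM in the TLR4ΔIEC-labelled libraries, against 107, 106 and 82.4 TPM in those labelled WT. Its groups did not overlap under any of the 4 scalings, and its log2 fold change was −0.88 (standard error 0.18, adjusted p = 0.094), with adjusted p-values from 0.0555 to 0.362 over the settings tried. Genes of heme synthesis and breakdown had a median of 0.12 over 12 tested genes. Alas1, the rate-limiting enzyme of heme synthesis, averaged 142 ± 42.3 TPM in the TLR4ΔIEC-labelled libraries and 127 ± 11.4 TPM in those labelled WT (SD, n = 3 each). Both medians lie below the 0.16 of all genes.

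Receptors and their partners had a median log2 fold change of 0.32 over 18 tested genes, of which 8 lay wholly higher and 2, Nr1i3 and Ahr, wholly lower in the TLR4ΔIEC-labelled libraries, beside 24.1% and 3.53% of all genes. Under each of the 3 other scalings, Nr1h4 was the only 1 of the 8 that still lay wholly higher, while Nr1i3 and Ahr lay wholly lower. Nfe2l2, whose groups overlapped under the deposited scaling, also lay wholly lower in each, with log2 fold changes of −0.30, −0.42 and −0.43. Nr1h4, the bile acid receptor FXR, stood at 105, 91.6 and 112 TPM in the TLR4ΔIEC-labelled libraries, against 63.0, 32.8 and 31.8 TPM in those labelled WT. Its groups did not overlap under any of the 4 scalings, the log2 fold change was 1.32 (standard error 0.27, adjusted p = 0.094), and the adjusted p ran from 0.0347 without WT replicate 1 to 0.362 over the settings tried. Ileal markers, some of which are known FXR targets, summed higher in the same libraries, and their part in this value was not tested. Hnf4a, a nuclear receptor that many P450 genes need in liver, averaged 306 ± 29.3 TPM in the TLR4ΔIEC-labelled libraries and 247 ± 17.2 TPM in those labelled WT (SD, n = 3 each). Its log2 fold change was 0.31, and −0.02 with rescaling.

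Target genes other than P450 likewise held no call. The median log2 fold change was 0.12 over 5 tested Ahr targets, 0.14 over 15 CAR and PXR targets and 0.36 over 19 Ppara targets. Of the Ahr targets 1, Tiparp, lay wholly higher and 1, Aldh1a3, wholly lower. Of the CAR and PXR targets these were Aldh1a1 and Abcc2, beside 24.1% and 3.53% of all genes. Aldh1a3 (−1.16) and Abcc2 (−0.38) lay wholly lower under each of the 3 other scalings, and Tiparp overlapped in each. Gstm1 lay wholly lower with quantile normalization and with rescaling. Aldh1a1, a retinal dehydrogenase and one of these CAR and PXR targets, stood at 167, 235 and 196 TPM in the TLR4ΔIEC-labelled libraries, against 90.4, 48.3 and 53.1 TPM in those labelled WT. Its groups did not overlap under any of the 4 scalings, and its log2 fold change was 1.67 (standard error 0.26, adjusted p = 0.08), with adjusted p-values from 0.0347 to 0.325 over the settings tried; those below the threshold came with array weights, without WT replicate 1 and without TLR4ΔIEC replicate 1. Ces2c, an intestinal carboxylesterase, averaged 280.0 ± 74.3 TPM in the TLR4ΔIEC-labelled libraries and 166 ± 42.9 TPM in those labelled WT (SD, n = 3 each). Of the Ppara targets, 5 lay wholly higher in the TLR4ΔIEC-labelled libraries and 1, Fabp1, wholly lower, beside 24.1% and 3.53% of all genes. Under the 3 other scalings, Acadl and Slc25a20 lay wholly higher in each, Cpt2 in 1 and Plin2 and Vnn1 in none. Fabp1, a fatty acid binding protein that is also one of the proximal markers, had a log2 fold change of −3.78 (standard error 0.90, adjusted p = 0.108). Epoxide hydrolases and eicosanoid enzymes had a median of −0.06 over 10 tested genes, with no gene whose groups stood apart under the deposited scaling. Under each of the 3 other scalings Ephx1 lay wholly lower, with log2 fold changes of −0.59, −0.53 and −0.72. Lta4h lay wholly lower with quantile normalization and with rescaling.

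P450 genes of other families, only some of which make sterols, bile acids or steroid hormones, had a median log2 fold change of −0.22 over the 7 tested of 22 listed. The list also holds Cyp2ab1, a family 2 gene that the name rule left out, which was below the minimum for a test. Cyp51, the lanosterol demethylase of cholesterol synthesis, stood at 78.2, 101 and 85.9 TPM in the TLR4ΔIEC-labelled libraries, against 45.6, 33.6 and 38.0 TPM in those labelled WT. The groups did not overlap under any of the 4 scalings. The log2 fold change of Cyp51 was 1.16 (standard error 0.17, adjusted p = 0.08), with adjusted p-values from 0.0367 to 0.325 over the settings tried; those below the threshold came with array weights and without TLR4ΔIEC replicate 1. Of the 26 tested members of families 1 to 4, none lay wholly higher under the 3 other scalings.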

How the data were processed

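RNA was sequenced from small intestine of 3 mice labelled TLR4ΔIEC and 3 labelled WT. Per the submitters' processing notes, fastp, HISAT, RSEM and the build GRCm38.p5 were used; versions and strand settings are not given in the sources used here, so overlapping and antisense genes such as Cyp4x1 and Cyp4x1os cannot be told apart. The authors deposited 1 table with a TPM for each gene in each library, as its header states; read totals cannot be had from TPM, so the depth behind a value is unknown and counting intervals are not printed. Sample titles give the group and the replicate number, and the design text gives 3 mice per genotype.

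Genes averaging 1 TPM or more (13458 of 54012) were tested on log2(TPM + 1), a scale that understates the change of low genes, with limma 3.58.1 in R 4.3.3: eBayes with an intensity trend, two-sided, genotype as the single term, Benjamini-Hochberg adjustment over all tested genes at 0.05. Fold changes are TLR4ΔIEC minus WT. No member was given a p over the list alone, and lists are described by counts and medians. On values simulated from the observed mean and spread of each of the 13458 genes, the fit recovered 22 of 100 genes changed by 1 and 78 of 100 changed by 2 on the log2 scale, with 6 false calls. Transcript identity is from blastn of the longest coding transcripts of GENCODE M21, aligned over at least 50% of their length; 8 of the 26 tested members have a paralog at 90% identity or more. Promoters are from RefSeq on GRCm38.p6.

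The members and all lists were chosen with earlier results of these data known. Members given by library are the up to 6 of highest mean TPM in each family, the 8 of largest and the 8 of smallest log2 fold change; the other tested members are given likewise. List genes are by rule the 3 of highest mean TPM, and some of these are not given. Por, Nr1i3, Nr1i2, Nr1h4, Ahr, Aldh1a1, Abcc2, Tiparp, Gstm1 and Ephx1 were chosen after their values were seen. So were the promoters of Cyp2b10, Cyp2c65, Cyp3a11 and Cyp3a25. The alternatives tried are in the closing section.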

Additional observations from a re-analysis of the deposited data

How the results depend on the processing

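Results were recomputed under 16 alternatives: a pseudocount of 0.1 or of 5 TPM, all genes unfiltered, a minimum mean of 5 TPM, 3 other scalings, eBayes without trend, array weights, a replicate block and each library left out in turn. Of 407 fold changes of single members, 377 kept their direction and 30 did not; 15 members never changed sign. All genes called, 16 with the settings reported, numbered 0 without a filter, 7 with a mean of at least 5 TPM, 10 with rescaling without defensin, mitochondrial and 18S-like genes, 136 with array weights and 0 to 367 with a library left out. Called members, 0 as reported, numbered 1 with array weights (Cyp2b10, −3.20) and 0 to 2 with a library left out. Members wholly higher, 3 as reported, numbered 5 without a filter, 0 under each other scaling and 3 to 7 with a library left out. Members wholly lower, 2 as reported, numbered 4 without a filter, 1 with a mean of at least 5 TPM, 6 with median-of-ratios scaling or quantile normalization, 7 with rescaling and 2 to 7 with a library left out.

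The family 1 median was −0.73 with a pseudocount of 0.1 TPM and −0.55 with rescaling; it has no value with a mean of at least 5 TPM, which leaves no member. The family 2 median was 0.02 without a filter and 0.04 with a mean of at least 5 TPM, against −0.22 as reported. The family 4 median was 0.02 without a filter, 0.06 with quantile normalization and 0.02 with rescaling, which also put the log2 ratio of its summed TPM at −0.07, against 0.26 as reported. With median-of-ratios scaling, quantile normalization and rescaling, negative values replaced positive ones for Cyp2d26 (−0.15, −0.27 and −0.28), Cyp3a13 (−0.11, −0.22 and −0.23), Cyp3a11 (−0.10, −0.15 and −0.22) and Cyp4f16 (−0.15, −0.27 and −0.28), as for Cyp2d22 with rescaling (−0.05) and Cyp3a13 with array weights (−0.16). With a library left out, fold changes that changed sign ran from −0.36 to 0.77 for Cyp2d26, −0.24 to 0.26 for Cyp1a1, −0.03 to 0.91 for Cyp2c65, −0.50 to 0.04 for Cyp2c68, −0.33 to 0.01 for Cyp2c40, −0.81 to 0.32 for Cyp2e1, −0.16 to 0.29 for Cyp3a13, −0.67 to 1.02 for Cyp3a11, −0.11 to 0.99 for Cyp3a25 and −0.16 to 0.25 for Cyp4f16. The causes of these differences were not tested.

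Replicate numbers name no shared animal. Deviations of same-numbered libraries correlated at −0.04, 0.04 and 0.12, and not every library correlated best with its own number. These values show no pairing by number, and whether litters, days or batches were shared cannot be told from them. A replicate block gave 1 call over all genes and 0 among the members. Where a library is left out, the remaining 2 of its label are assumed to vary like the other 3. TPM give no depth, so members near 1 TPM, such as Cyp1a1 and Cyp2j9, have an unknown number of reads behind them.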

Other observations

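Among members below the minimum for a test, Cyp2w1, an orphan P450 known from fetal gut and colon tumours, stood at 0.91, 0.48 and 0.72 TPM in the TLR4ΔIEC-labelled libraries, against 1.83, 0.68 and 0.90 TPM in those labelled WT. Cyp2r1, a vitamin D 25-hydroxylase, stood at 0.90, 0.58 and 0.60 TPM in the TLR4ΔIEC-labelled libraries, against 0.52, 0.52 and 0.71 TPM in those labelled WT. In both genes the groups overlapped. These values are close to those of Cyp1a1 and Cyp1b1, which entered the test.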
